A study of Mus musculus with 3 samples.

Results

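The genes described here are 33 enzymes and regulators of cholesterol and fatty acid synthesis, measured by RNA sequencing in 3 mouse tumour cell lines. They were chosen by name: every row of the deposited tables that carries 1 of 33 gene symbols was taken, out of 15529 named genes in the tables together. All 33 were listed in Cloudman S91 and in 4T1, and 32 in B16-F1, whose table has no row for Tm7sf2. B16-F1 (strain C57BL/6J) and Cloudman S91 (strain DBA) are melanomas of the skin kept in DMEM with serum, and 4T1 (strain BALB/cfC3H) is a mammary carcinoma kept in RPMI with serum. Tumour type, strain and medium therefore cannot be told apart in any comparison with 4T1. The labels name no treatment or engineered allele. Each line is represented by 1 library, so there is no spread between replicates, no test was made, and every difference below is between libraries.

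Cholesterol is built in the endoplasmic reticulum and cytosol from acetyl-CoA. The mevalonate pathway makes isoprenoid units, squalene is assembled from them, and a long series of enzymes turns squalene into cholesterol. Fatty acids are built from the same acetyl-CoA by acetyl-CoA carboxylase and fatty acid synthase, and are then elongated and desaturated. Both branches are controlled by the SREBP transcription factors, which stay in the endoplasmic reticulum bound to SCAP and the INSIG proteins while sterol is plentiful, and reach the nucleus when it is scarce. Cultured cells take up part of their lipid from serum, and proliferating tumour cells are known for making much of the rest themselves.

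Because SREBPs act on short promoter elements, the 250 bases before the annotated start of Hmgcs1 and Insig1 are shown. They were chosen because both genes are textbook SREBP targets and their windows hold the core of a sterol regulatory element, spelled CACNCCAC. Capitals mark that core or its reverse complement, and the CCAAT box or its reverse complement ATTGG. Both are from RefSeq on build GRCm38.p6, both are on the plus strand, and each ends at the base before the start of the gene, at chr13:119690101-119690350 for Hmgcs1 and chr5:28071162-28071411 for Insig1.
Hmgcs1: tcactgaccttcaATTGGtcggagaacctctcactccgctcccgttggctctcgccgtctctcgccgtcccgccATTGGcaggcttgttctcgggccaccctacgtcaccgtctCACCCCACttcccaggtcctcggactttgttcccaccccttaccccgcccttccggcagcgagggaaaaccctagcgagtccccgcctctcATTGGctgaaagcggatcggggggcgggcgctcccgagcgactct
Insig1: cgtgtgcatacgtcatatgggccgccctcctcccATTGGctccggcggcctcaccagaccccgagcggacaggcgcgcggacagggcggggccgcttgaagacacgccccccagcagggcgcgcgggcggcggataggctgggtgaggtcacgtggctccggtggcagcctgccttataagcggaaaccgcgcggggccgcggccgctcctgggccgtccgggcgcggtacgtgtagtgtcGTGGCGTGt

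In the Hmgcs1 window the core starts 136 bases before the start of the gene, in the coding orientation. In the Insig1 window it lies on the opposite strand, 9 bases before the start. A promoter window of 300 bases (250 before and 50 after the start) was found for 27 of the 33 genes, 35 windows in all. Fads1, Fdft1, Fdps, Scd1, Scd2 and Sqle had none. Searched on both strands, CACNCCAC occurred in 3 of these 27 genes (Acat2, Hmgcs1 and Insig1), against 7.36% of 9595 genes with FPKM 1 or more in any line and a window. The longer TCACNCCAC, which contains it, occurred in Hmgcs1 and in 1.31% of those genes. CCAAT occurred in 22 of the 27 genes (81.5%), against 43.5% of the 9595. The GC box GGGCGG occurred in 21 of the 27 (77.8%), against 70.1%, and the E-box CACGTG in 6 of the 27 (22.2%), against 12.1%. A match is a run of letters, and was not tested as a binding site.

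The 3 tables summed to between 7412840 and 9098072 expected counts and listed between 13188 and 13884 named genes. The labelled cell types were checked on marker genes. All 6 melanocyte markers (Dct, Tyrp1, Pmel, Mlana, Sox10 and Mitf) were above FPKM 1 in B16-F1 and Cloudman S91 and only Mitf, at 1.23, in 4T1, while all 6 epithelial markers (Krt7, Krt8, Krt18, Cldn3, Cldn4 and Epcam) were above FPKM 1 in 4T1 and none in the melanoma lines. FPKM is the read count scaled to transcript length and to the total count of the library, so levels of different genes can be compared. Summed over 5 adipocyte markers the FPKM was 0.13 in B16-F1 and 7.68 in Cloudman S91, against 0.12 in 4T1, almost all of it Cidec, a lipid droplet protein, at 7.61 in Cloudman S91, with Plin1 and Lep in no table. Over 5 hepatocyte markers it was 0.36 (B16-F1), 1.17 (Cloudman S91) and 0 (4T1), over 8 leukocyte markers 3.13 (B16-F1), 0.58 (Cloudman S91) and 11.6 (4T1, mostly Cd68), over 5 endothelial markers 0.23 (B16-F1), 0.20 (Cloudman S91) and 0.21 (4T1), and over 6 fibroblast markers 3.63 (B16-F1), 20.3 (Cloudman S91, mostly Pdgfra) and 1.21 (4T1). The part of these markers in the results below was not tested. In bulk RNA, fewer expressing cells and less RNA per cell cannot be told apart.

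The synthesis genes as a whole were most abundant in the melanoma libraries. Their FPKM summed to 1569 in B16-F1 and 1275 in Cloudman S91, against 855 in 4T1, and their median was 33.2 (B16-F1), 25.3 (Cloudman S91) and 15.9 (4T1), against medians of 13.96 (B16-F1), 12.96 (Cloudman S91) and 13.4 (4T1) for all named genes at FPKM 1 or more. They took 0.632% (B16-F1), 0.506% (Cloudman S91) and 0.304% (4T1) of all expected counts. Scd2, a desaturase that makes monounsaturated fatty acids, was the highest of them in every line and alone made up 26.2% (B16-F1), 20.9% (Cloudman S91) and 15.4% (4T1) of the summed FPKM. Fdps, which makes farnesyl diphosphate, was second in every line, and Acly and Fasn were among the 5 highest in every line. At the low end, Acacb, Tm7sf2 and Hsd17b7 stayed below FPKM 5 in all lines.

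**Figure D1:**
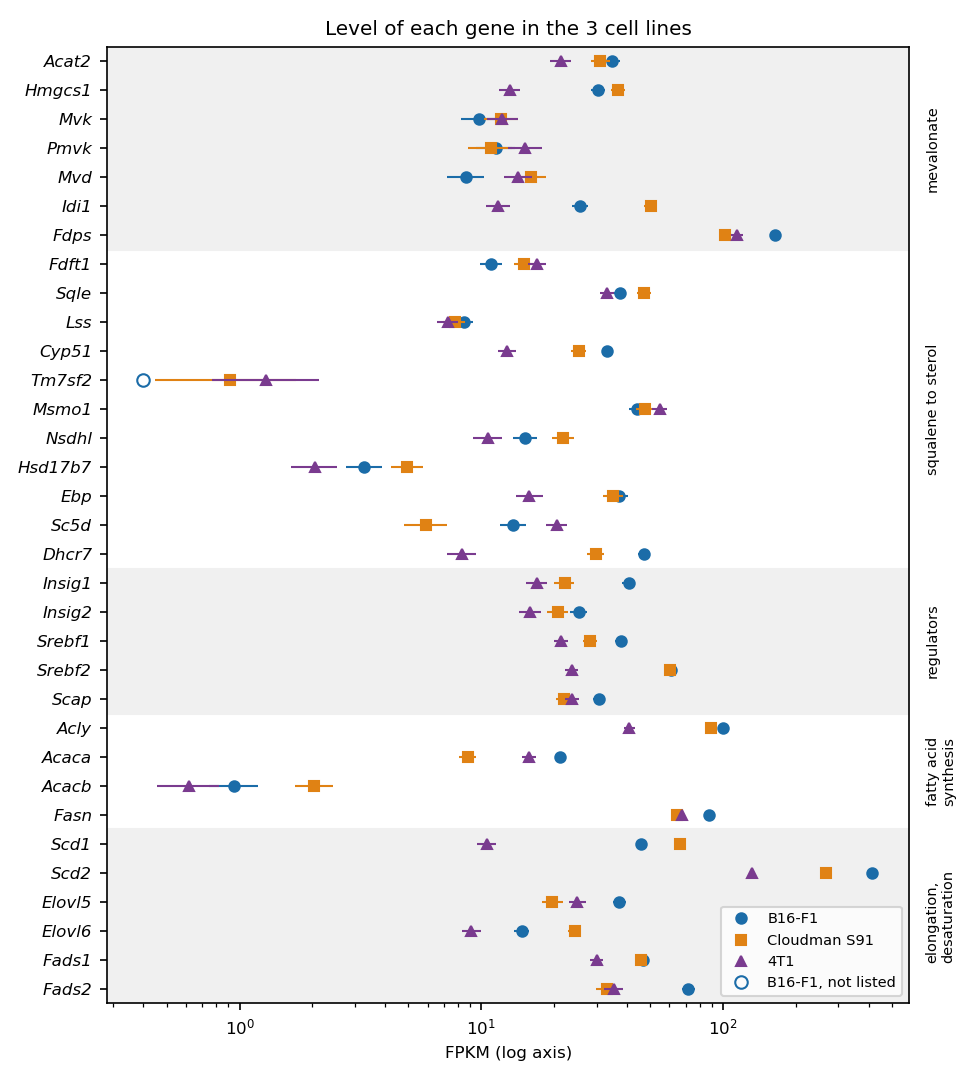
FPKM of the 33 genes on a log axis in B16-F1, Cloudman S91 and 4T1, 1 library each, with genes grouped by role and horizontal bars giving the 95% Poisson interval of the count. Most genes lie between FPKM 5 and 100, the 4T1 triangle is the lowest of the 3 for 20 of 33 genes, and the open circle marks Tm7sf2, which is not listed in B16-F1.

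Differences are given in log2(FPKM + 1), a scale that understates the change of low genes, for genes whose FPKM reached 1 in either line of a pair. A gene is called higher or lower when the difference is at least 1, which is 2-fold on that scale, and a stricter 4-fold rule is a difference of at least 2. Fold changes are ratios of FPKM, followed by an exact 95% interval that covers counting error only. B16-F1 was compared with 4T1, Cloudman S91 with 4T1, and B16-F1 with Cloudman S91. Any pair of these comparisons shares a library (4T1 in the first 2), so they are not independent of each other.

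Between B16-F1 and 4T1, 32 of the 33 genes could be compared, since Acacb was under FPKM 1 in both. Of these, 11 were called higher in B16-F1 (34.4% of those compared), against 18.5% of all 11547 named genes. 1 gene, Tm7sf2, was called lower (3.12%), against 18.9% of all genes. The median difference of the 32 genes was 0.59, against 0.03 for all genes, and 25 of the 32 were above 0 (78.1%), against 51.2% of all genes. The genes called higher were Hmgcs1, Idi1, Cyp51, Ebp, Dhcr7, Insig1, Srebf2, Acly, Scd1, Scd2 and Fads2. Under the 4-fold rule 2 of the 32 remained, Dhcr7 and Scd1, a share near the 6.31% of all genes called higher. None was called lower, against 7.43% of all genes. With a pseudocount of 5, Hmgcs1, Idi1, Fads2 and Tm7sf2 lost their calls, and Fads2, which lay on the threshold, also lost its call with median-of-ratios scaling. Rescaling to TPM put the median of all genes at 0.38 and that of the synthesis genes to 0.96, a gap of 0.57 against 0.56 in FPKM. With TPM, 3283 of all genes were higher and 1770 lower, against 2140 and 2180 in FPKM, and 15 of the 32 synthesis genes were called higher.

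Between Cloudman S91 and 4T1 all 33 genes could be compared. Of these, 9 were called higher in Cloudman S91 (27.3%), against 18.0% of all 11657 named genes, and 1, Sc5d, was called lower (3.03%), against 22.5%. The genes called higher were Hmgcs1, Idi1, Ebp, Dhcr7, Srebf2, Acly, Scd1, Scd2 and Elovl6. The median difference was 0.38, against -0.14 for all genes, and TPM gave 0.83 against 0.29. With TPM, 3266 of all genes were higher and 1923 lower, against 2103 and 2627 in FPKM, and 14 of the 33 were called higher. Under the 4-fold rule 2 of the 33 genes remained, Idi1 and Scd1, a share below the 7.47% of all genes called higher. None was called lower, against 8.01% of all genes. With a pseudocount of 5, Ebp and Scd2 lost their calls.

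Between B16-F1 and Cloudman S91, 32 genes could be compared, since Tm7sf2 was under FPKM 1 in both. The synthesis genes lay close to all named genes here in their median and in the share called higher. Only Sc5d, Acaca and Fads2 were called higher in B16-F1 (9.38%), against 10.9% of all 11133 named genes, and none was called lower, against 9.11%. No gene passed the 4-fold rule, which called 2.33% of all genes higher and 3.19% lower. The median was 0.10, against 0.14 for all genes, and its sign depended on the scaling, being -0.056 with median-of-ratios and -0.065 with upper-quartile scaling. Sc5d and Fads2 lost their calls under both of these scalings, and Sc5d and Acaca with a pseudocount of 5.

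**Figure D2:**
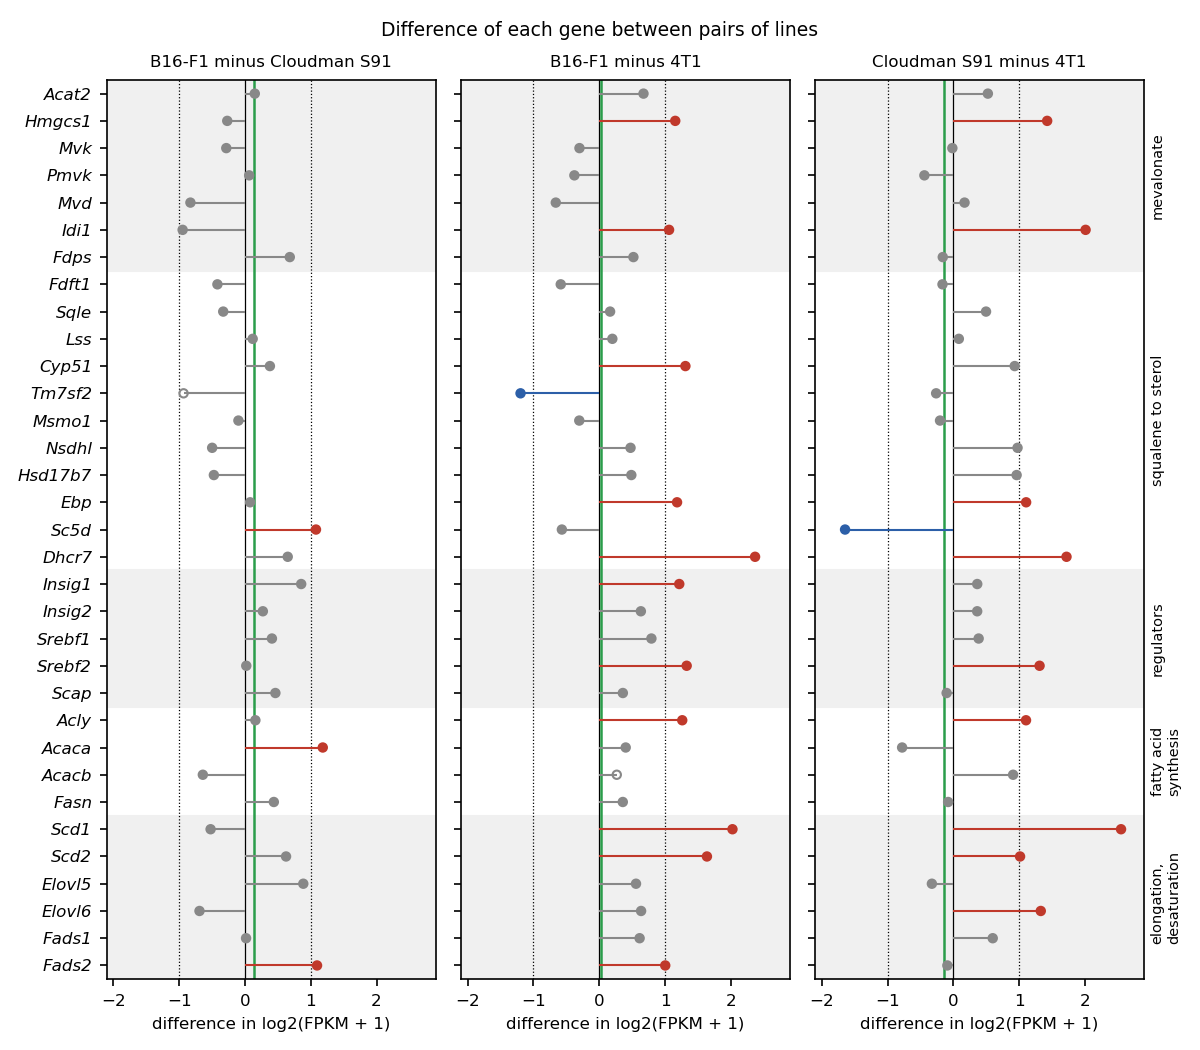
Difference in log2(FPKM + 1) of each gene for the 3 pairs of lines, with dotted lines at the 2-fold rule, a green line at the median of all named genes, and open circles for genes too low to compare. Red points (called higher in the first line) number 3, 11 and 9 from left to right, and blue points (called lower) number 0, 1 and 1.

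**Figure D3:**
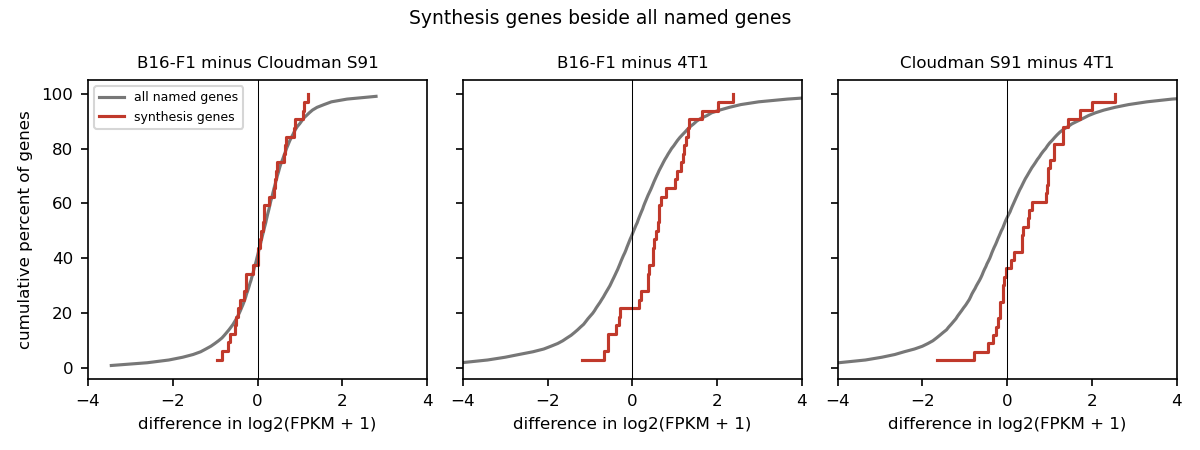
Cumulative percent of genes against the difference in log2(FPKM + 1), for the synthesis genes at FPKM 1 or more in the pair (red steps) and all named genes (grey, 1st to 99th percentile). For B16-F1 minus Cloudman S91 the red steps lie near the grey curve in the middle. They span only -0.95 to 1.18, where the grey curve runs from -3.45 to 2.80. The steps lie to the right of the grey curve through the middle of both panels against 4T1. The medians there are 0.59 against 0.03 and 0.38 against -0.14.

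The mevalonate pathway was split. Its 7 genes summed to FPKM 285 in B16-F1 and 260 in Cloudman S91, against 202 in 4T1, and Fdps alone made up 57.8% (B16-F1), 39.4% (Cloudman S91) and 56.6% (4T1) of that sum. Hmgcs1, which joins acetoacetyl-CoA with acetyl-CoA at the entry of the pathway, had FPKM 30.4 in B16-F1 and 36.9 in Cloudman S91, against 13.1 in 4T1. It was 2.32-fold higher in B16-F1 than in 4T1 (2.07 to 2.61) and 2.82-fold higher in Cloudman S91 than in 4T1 (2.50 to 3.17). Idi1, the isomerase that supplies the reactive isoprenoid unit, had 25.6 (B16-F1), 50.3 (Cloudman S91) and 11.7 (4T1). The counting intervals of Idi1 did not overlap between the 3 libraries. Cloudman S91 was 1.96-fold above B16-F1 (1.78 to 2.17), just under the 2-fold rule. It was 4.29-fold above 4T1 (3.76 to 4.89), the largest ratio of the group. Fdps had 165 in B16-F1 and 102 in Cloudman S91, against 115 in 4T1, and was 1.44-fold higher in B16-F1 than in 4T1 (1.34 to 1.55), under the 2-fold rule.

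The 3 enzymes that phosphorylate and decarboxylate mevalonate were not called in any pair. Mvk, mevalonate kinase, had FPKM 9.75 in B16-F1 and 12.1 in Cloudman S91, against 12.2 in 4T1. Pmvk, phosphomevalonate kinase, had 11.5 (B16-F1), 10.95 (Cloudman S91) and 15.2 (4T1). Mvd, the decarboxylase, had 8.63 (B16-F1), 16.1 (Cloudman S91) and 14.2 (4T1). B16-F1 had the lowest Mvk and Mvd, and 4T1 the highest Pmvk. Acat2, a cytosolic thiolase, had 34.6 (B16-F1), 31.1 (Cloudman S91) and 21.3 (4T1), but its neighbour on chromosome 17, Acat3 (12923830 to 12940595, beside Acat2 at 12943042 to 12960725), is near-identical, the counts of both were not whole numbers, and Acat3 ran in another order, at 32.0 (B16-F1), 19.8 (Cloudman S91) and 49.4 (4T1). Added together they gave 66.65 in B16-F1 and 50.9 in Cloudman S91, against 70.7 in 4T1, so that the higher value of Acat2 in the melanoma lines was not seen in the sum.

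From squalene to cholesterol, 11 genes were measured, and they summed to FPKM 251 in B16-F1 and 241 in Cloudman S91, against 184 in 4T1. Between B16-F1 and 4T1, 3 were called higher (27.3%, against 18.5% of all genes) and 1 lower (9.09%, against 18.9%). The median was 0.20, against 0.03. Between Cloudman S91 and 4T1, 2 were called higher (18.2%, near the 18.0% of all genes) and 1 lower (9.09%, against 22.5%). The median was 0.50, against -0.14. The first enzymes differed by less than the 2-fold rule. Fdft1, squalene synthase, had 11.0 (B16-F1), 15.1 (Cloudman S91) and 17.0 (4T1), and was 1.54-fold higher in 4T1 than in B16-F1 (1.35 to 1.77). Sqle, the epoxidase that is a rate-limiting step, had 37.4 (B16-F1), 47.2 (Cloudman S91) and 33.2 (4T1). Lss, which closes the ring system, had 8.49 (B16-F1), 7.75 (Cloudman S91) and 7.26 (4T1), and its largest ratio between any 2 lines was 1.17. None of the 3 was called in any pair.

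Dhcr7, which reduces 7-dehydrocholesterol to cholesterol (chromosome 7, 143823167 to 143848410), showed the largest difference of the sterol enzymes in log2(FPKM + 1), at 2.37 for B16-F1 minus 4T1. It had FPKM 47.3 in B16-F1 and 29.8 in Cloudman S91, against 8.34 in 4T1. B16-F1 was 5.67-fold above 4T1 (4.89 to 6.61), Cloudman S91 was 3.57-fold above 4T1 (3.05 to 4.20), and B16-F1 was 1.59-fold above Cloudman S91 (1.44 to 1.75). The counts of Dhcr7 in the melanoma tables were not whole, and the count-based ratio of B16-F1 to 4T1 was 5.44.

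Sc5d, which makes 7-dehydrocholesterol, the substrate of Dhcr7, ran in a different order (chromosome 9, 42251592 to 42264300). It had 13.6 in B16-F1 and 5.89 in Cloudman S91, against 20.6 in 4T1. The line with the lowest Dhcr7 therefore had the highest Sc5d. Sc5d was 3.49-fold lower in Cloudman S91 than in 4T1 (2.79 to 4.41), and 2.30-fold higher in B16-F1 than in Cloudman S91 (1.82 to 2.94). Within each library, which no scaling between libraries can change, Dhcr7 was above Sc5d in the melanoma lines and below it in 4T1.

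Cyp51, the lanosterol demethylase, had 33.2 (B16-F1), 25.3 (Cloudman S91) and 12.8 (4T1), and Ebp, a sterol isomerase, had 37.2 (B16-F1), 35.2 (Cloudman S91) and 15.8 (4T1). Cyp51 was 2.60-fold higher in B16-F1 than in 4T1 (2.34 to 2.89) and 1.98-fold higher in Cloudman S91 than in 4T1 (1.77 to 2.22), just under the 2-fold rule. Ebp was called in both, at 2.35-fold (2.02 to 2.75) and 2.23-fold (1.90 to 2.61). Msmo1, the methylsterol oxidase, was the most abundant sterol enzyme of 4T1, with 44.1 (B16-F1), 47.4 (Cloudman S91) and 54.7 (4T1), and was not called in any pair. Nsdhl, a sterol dehydrogenase, had 15.2 (B16-F1), 21.9 (Cloudman S91) and 10.6 (4T1), and Hsd17b7, a ketosteroid reductase, had 3.28 (B16-F1), 4.94 (Cloudman S91) and 2.05 (4T1). Both were highest in Cloudman S91 and lay at 0.98 and 0.96 above 4T1 in log2(FPKM + 1), just short of the 2-fold rule. Tm7sf2, a sterol reductase, was not listed in B16-F1, and had 0.91 in Cloudman S91 (9.74 counts) and 1.29 in 4T1 (16.5 counts). With 3 counts allowed for B16-F1, the value of 4T1 was at least 5.85-fold higher. That bound leaves out the counting error of 4T1 (FPKM 0.77 to 2.12).

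Among the regulators, Srebf2, the SREBP that chiefly drives cholesterol genes (chromosome 15, 82147269 to 82205379), separated 4T1 from the melanoma lines. It had FPKM 61.0 in B16-F1 and 60.1 in Cloudman S91, against 23.7 in 4T1. B16-F1 was 2.58-fold above 4T1 (2.39 to 2.78) and Cloudman S91 was 2.54-fold above it (2.35 to 2.75), while the ratio of B16-F1 to Cloudman S91 was 1.014 (0.956 to 1.08), an interval that includes 1. Srebf1, which chiefly drives fatty acid genes, had 37.8 (B16-F1), 28.2 (Cloudman S91) and 21.4 (4T1) and was not called in any pair. Srebf1 thus made up 38.3% of the Srebf1 and Srebf2 total in B16-F1 (36.7% to 39.8%) and 31.9% in Cloudman S91 (30.2% to 33.7%), against 47.5% in 4T1 (45.1% to 49.8%). Scap, the escort of both, had 30.7 (B16-F1), 22.01 (Cloudman S91) and 23.7 (4T1).

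Insig1, a retention protein and itself an SREBP target, had 40.8 in B16-F1 and 22.1 in Cloudman S91, against 17.0 in 4T1. It was called higher in B16-F1 than in 4T1, at 2.40-fold (2.14 to 2.71). The 4T1 table also holds an assembled transcript with no symbol, described as the INSIG1 protein, at FPKM 5.18. This row is 559 bases long with 22.8 counts, against 2667 bases and 396 counts for Insig1. With its FPKM added, 4T1 stood at 22.15, the ratio of B16-F1 to 4T1 was 1.84, and the call was lost. In counts the sum was 971 in B16-F1 against 419 in 4T1, so the lost call depends on the short length of the added row. Insig2, the other retention protein, had 25.3 (B16-F1), 20.8 (Cloudman S91) and 15.9 (4T1), and was not called. Insig1 made up 61.7% of the Insig1 and Insig2 total in B16-F1 (59.3% to 64.2%), and 51.6% both in Cloudman S91 (48.1% to 55.0%) and in 4T1 (47.9% to 55.2%). With the FPKM of the assembled row added, the Insig1 share in 4T1 was 58.2%, which carries the same dependence on length.

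Of the 4 genes of fatty acid synthesis proper, Acly alone was called against 4T1 in FPKM, and Acaca joined it in B16-F1 on counts without length, as did Acacb in Cloudman S91 on counts without length, with TPM, with upper-quartile scaling or with a pseudocount of 0.1. Acly, which cleaves citrate to supply cytosolic acetyl-CoA (chromosome 11, 100476352 to 100528000), had FPKM 99.9 in B16-F1 and 89.4 in Cloudman S91, against 41.0 in 4T1. It was 2.43-fold higher in B16-F1 than in 4T1 (2.30 to 2.58) and 2.18-fold higher in Cloudman S91 than in 4T1 (2.05 to 2.32). Fasn, fatty acid synthase, had 87.4 (B16-F1), 64.2 (Cloudman S91) and 67.9 (4T1) and was not called. Its listed length was 9938 bases in the melanoma tables and 8169 in the 4T1 table, and without length the ratio of B16-F1 to 4T1 was 1.57, against 1.29 in FPKM.

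Acaca, acetyl-CoA carboxylase 1 (chromosome 11, 84129635 to 84401651), had 21.2 in B16-F1 and 8.79 in Cloudman S91, against 15.8 in 4T1. Its listed length was 9144 bases in B16-F1 and 9224 in Cloudman S91, against 6124 in 4T1. Without length, the ratio of B16-F1 to 4T1 was 2.02, against 1.34 in FPKM. That of Cloudman S91 to 4T1 was 0.84, against 0.56 in FPKM. In FPKM, Acaca was 2.41-fold higher in B16-F1 than in Cloudman S91 (2.20 to 2.66) and called. The Cloudman S91 table holds an assembled transcript with no symbol, described as the same carboxylase, at FPKM 8.16, and the B16-F1 table lists it at 0.09. Added together, the levels were 21.3 (B16-F1), 16.95 (Cloudman S91) and 15.8 (4T1), the ratio of B16-F1 to Cloudman S91 was 1.26 (1.16 to 1.36), and the call was lost. In counts the sums were 1766 (B16-F1), 1076 (Cloudman S91) and 860 (4T1), and the levels beside 4T1 carry its difference in length. Acacb, the second carboxylase, linked to control of fatty acid oxidation, had 0.95 (B16-F1), 2.04 (Cloudman S91) and 0.62 (4T1). Acaca made up 95.7% of the Acaca and Acacb total in B16-F1 (94.6% to 96.6%) and 81.2% in Cloudman S91 (78.0% to 84.0%), against 96.2% in 4T1 (94.998% to 97.2%), from the rows with a symbol. With the assembled row added, the share in Cloudman S91 was 89.3%.

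Scd1 of Cloudman S91 and 4T1 gave the largest difference of any of the 33 genes in any pair, 2.55 in log2(FPKM + 1). Scd1, a stearoyl-CoA desaturase (chromosome 19, 44394450 to 44407709), had 46.0 in B16-F1 and 66.5 in Cloudman S91, against 10.5 in 4T1. It was 4.37-fold higher in B16-F1 than in 4T1 (3.94 to 4.84) and 6.31-fold higher in Cloudman S91 than in 4T1 (5.70 to 6.99). Scd2, on the same chromosome (44293676 to 44306864), had 412 (B16-F1), 267 (Cloudman S91) and 132 (4T1). It was 3.13-fold higher in B16-F1 than in 4T1 (3.04 to 3.22) and 2.03-fold higher in Cloudman S91 than in 4T1 (1.97 to 2.09). The order of the melanoma lines was thus opposite for the 2 desaturases. Scd1 made up 10.0% of their total in B16-F1 (9.63% to 10.5%) and 20.0% in Cloudman S91 (19.2% to 20.7%), against 7.41% in 4T1 (6.77% to 8.10%).

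The Scd genes lie in a cluster of 4 similar genes, and their counts were not whole numbers, so the split between them is uncertain. Scd3 had FPKM 0.03 in B16-F1 and 4.96 in Cloudman S91, against 0.62 in 4T1, and Scd4 had 0.15 (B16-F1), 0.36 (Cloudman S91) and 0.54 (4T1). With both added to Scd1 its levels were 46.15 (B16-F1), 71.8 (Cloudman S91) and 11.7 (4T1). The ratio was then 3.95 for B16-F1 over 4T1, which lost the 4-fold call at a difference of 1.89, and 6.14 for Cloudman S91 over 4T1.

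Fads1 and Fads2, which insert double bonds into polyunsaturated fatty acids, neighbour each other and Fads3 on chromosome 19, where the 3 genes span 10040855 to 10196874. Fads1 had 46.5 in B16-F1 and 46.0 in Cloudman S91, against 30.0 in 4T1. Fads2 had 71.9 (B16-F1), 33.1 (Cloudman S91) and 35.4 (4T1), so B16-F1 stood above both other lines, by 2.17-fold over Cloudman S91 (1.92 to 2.46) and by 2.03-fold over 4T1 (1.82 to 2.28). Fads3, outside the 33 genes and a member of the same family, was lowest in B16-F1 and highest in 4T1, with 0.10 in B16-F1 (3 counts) and 7.41 in Cloudman S91, against 76.4 in 4T1. The ratio of 4T1 to B16-F1 was 764, with a counting interval of 261 to 3709. Fads1 made up 39.3% of the Fads1 and Fads2 total in B16-F1 (37.3% to 41.3%) and 58.1% in Cloudman S91 (55.2% to 61.0%), against 45.9% in 4T1 (43.1% to 48.8%).

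The 2 elongases ran in opposite orders in the melanoma lines, though neither was called between B16-F1 and Cloudman S91. There Elovl5 was 1.89-fold higher in B16-F1 (1.68 to 2.13) and Elovl6 was 1.66-fold higher in Cloudman S91 (1.51 to 1.82). Elovl5, which elongates polyunsaturated fatty acids, had 37.3 in B16-F1 and 19.7 in Cloudman S91, against 25.0 in 4T1. Elovl6, which extends palmitate to stearate, had 14.7 (B16-F1), 24.4 (Cloudman S91) and 9.10 (4T1), and was 2.68-fold higher in Cloudman S91 than in 4T1 (2.40 to 2.99). Elovl5 made up 71.7% of their total in B16-F1 (69.7% to 73.6%) and 73.3% in 4T1 (70.8% to 75.6%), but 44.7% in Cloudman S91 (41.8% to 47.6%). Cloudman S91 was thus the line with more Elovl6 than Elovl5.

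**Figure D4:**
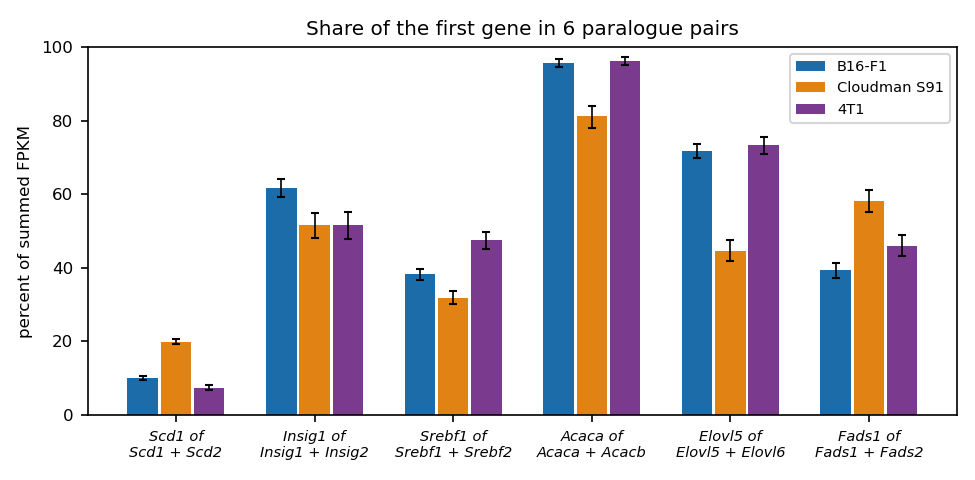
Share of the first gene in the summed FPKM of 6 pairs of related genes, as a percent within each library, for B16-F1, Cloudman S91 and 4T1, with exact 95% binomial intervals of the counts. Cloudman S91 stands apart for Scd1 (20.0%), Acaca (81.2%), Elovl5 (44.7%) and Fads1 (58.1%), B16-F1 for Insig1 (61.7%) and 4T1 for the highest Srebf1 share (47.5%), from rows with a symbol, while adding the assembled rows gives 58.2% for Insig1 in 4T1 and 89.3% for Acaca in Cloudman S91.

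Lipid genes outside the 33 were read from 8 lists. Their counts stand against 18.5% of all genes called higher and 18.9% lower for B16-F1 over 4T1, and 18.0% higher and 22.5% lower for Cloudman S91 over 4T1. Among 10 genes of SREBP processing and turnover, none was called higher against 4T1 in either melanoma line, and 1 was called lower in each, with medians of -0.046 and -0.12, near the 0.03 and -0.14 of all genes. The gene called lower was Erlin1, part of a complex that binds the degradation machinery of the endoplasmic reticulum, with FPKM 11.6 in B16-F1 and 15.1 in Cloudman S91, against 36.0 in 4T1. The 14 genes of the isoprenoid branch, which use the products of the mevalonate pathway, had medians of -0.036 against 4T1 in B16-F1 and -0.075 in Cloudman S91, with 1 gene called higher and 2 called lower each time. Rabggtb, a subunit of the enzyme that prenylates Rab proteins, had 40.9 (B16-F1), 50.3 (Cloudman S91) and 127 (4T1), and Pggt1b, a subunit of another prenyl transferase, had 8.35 (B16-F1), 11.6 (Cloudman S91) and 2.42 (4T1). Rabggta, the other subunit of the Rab enzyme, had 6.34 (B16-F1), 24.7 (Cloudman S91) and 21.9 (4T1) and was called lower in B16-F1 than in both other lines.

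Of 15 sterol uptake, transport and export genes compared, 5 were called higher and 2 lower in B16-F1 against 4T1 (median 0.49, with 0.03 for all genes), and likewise 5 and 2 in Cloudman S91 against 4T1 (median 0.37, with -0.14 for all genes). Lipa, the lysosomal acid lipase that frees cholesterol from its esters, had FPKM 36.55 in B16-F1 and 35.2 in Cloudman S91, against 2.40 in 4T1. It was 15.2-fold higher in B16-F1 than in 4T1 (11.8 to 20.0) and 14.7-fold higher in Cloudman S91 than in 4T1 (11.3 to 19.3). Soat2, which makes cholesterol esters, ran the other way, with 0.31 (B16-F1), 1.55 (Cloudman S91) and 16.8 (4T1), and was 54.2-fold lower in B16-F1 than in 4T1 (24.2 to 145). Between the melanoma lines, Lrp8, a lipoprotein receptor, had 4.70 in B16-F1 against 11.7 in Cloudman S91, and Abca1, a cholesterol exporter, had 1.27 in B16-F1 against 4.64 in Cloudman S91.

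Fatty acid oxidation, the breakdown route, had median differences from 4T1 of 0.85 in B16-F1 and 1.16 in Cloudman S91, against 0.59 (B16-F1) and 0.38 (Cloudman S91) for the synthesis genes and 0.03 (B16-F1) and -0.14 (Cloudman S91) for all genes. Of its genes compared, 8 of 18 were called higher in B16-F1 than in 4T1 and none lower, against 18.5% and 18.9% of all genes. In Cloudman S91, 10 of 19 were called higher than in 4T1 and 1 lower, against 18.0% and 22.5% of all genes. Ppargc1a, a coactivator of oxidative genes, had FPKM 4.32 in B16-F1 and 6.25 in Cloudman S91, against 0.05 in 4T1 (3 counts). Ehhadh, a peroxisomal enzyme, had 9.95 in B16-F1, 4.92 in Cloudman S91 and no row in 4T1, and B16-F1 was at least 89.5-fold above it. Between B16-F1 and Cloudman S91, 2 of 19 were called higher and 1 lower (median 0.07), against 10.9% and 9.11% of all genes (median 0.14). The largest called differences were those of Cpt1b, a carnitine palmitoyltransferase (not listed in B16-F1, 4.33 in Cloudman S91), and Eci1, an enoyl-CoA isomerase (35.3 in B16-F1, 12.8 in Cloudman S91).

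The other lists gave fewer calls in 1 direction. Of 15 fatty acid supply, elongation and desaturation genes compared with 4T1, 3 were called higher and 1 lower in each melanoma line, with Fads3 the gene called lower. Fads6, a desaturase-like gene, had 5.40 in B16-F1 and 7.05 in Cloudman S91 and was not listed in 4T1. For fatty acid activation and glycerolipid synthesis, 5 of 16 were higher and 3 lower in B16-F1 against 4T1 (18.5% and 18.9% of all genes), and 1 was higher and 4 lower in Cloudman S91 against 4T1 (18.0% and 22.5% of all genes), so the lower calls were near the shares of all genes. Acsl5, an acyl-CoA synthetase, had 47.1 (B16-F1), 17.5 (Cloudman S91) and 94.2 (4T1), and Gpam, which starts glycerolipid synthesis, had 9.04 (B16-F1), 1.31 (Cloudman S91) and 2.47 (4T1). Lpin1, a phosphatidate phosphatase, had 2.51 (B16-F1), 7.54 (Cloudman S91) and 1.31 (4T1). Lpin3, of the same family, was not listed in B16-F1 and had 0.16 in Cloudman S91 and 3.05 in 4T1, and Acsl6, another acyl-CoA synthetase, had 0.22 (B16-F1), 0.05 (Cloudman S91) and 2.86 (4T1).

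Of the fatty acid uptake and binding genes, 3 of 6 compared were called higher and 1 lower in B16-F1 against 4T1 (median 1.14). In Cloudman S91 against 4T1, 2 of 7 were higher and 2 lower (median 0.07), and in B16-F1 against Cloudman S91 likewise 2 and 2 of 7 (median -0.0025). Of all genes in that last pair, 10.9% were called higher and 9.11% lower (median 0.14). Lpl, the secreted lipoprotein lipase, had FPKM 0.11 in B16-F1 and 18.65 in Cloudman S91, against 0.06 in 4T1. Slc27a1, a fatty acid transporter, had 2.78 (B16-F1), 10.9 (Cloudman S91) and 91.8 (4T1), and was 33.01-fold lower in B16-F1 than in 4T1 (26.1 to 42.3). Slc27a6, of the same family, had 6.00 in B16-F1 and no row in Cloudman S91, against 1.89 in 4T1. Fabp7, a fatty acid binding protein of glial cells, had 14.03 in B16-F1 and 15.3 in Cloudman S91 and was not listed in 4T1, and Cd36, a fatty acid receptor, was in no table. In mitochondrial fatty acid synthesis, Oxsm had 4.32 (B16-F1), 5.18 (Cloudman S91) and 0.66 (4T1) and Mecr had 15.4 (B16-F1), 5.57 (Cloudman S91) and 38.4 (4T1). These enzymes elongate and reduce the growing chain, and they lay in opposite orders across the lines.

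**Figure D5:**
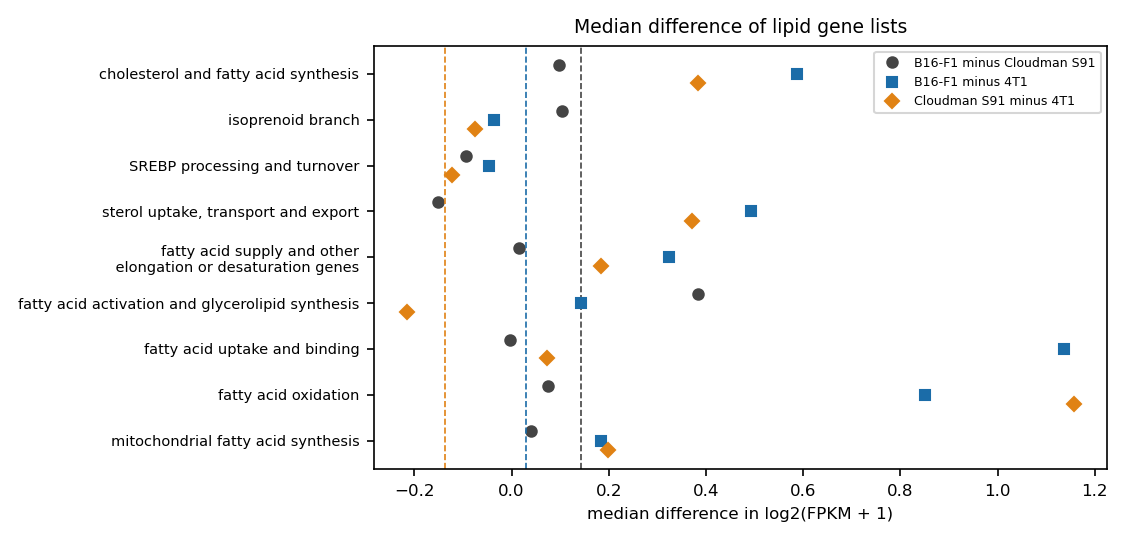
Median difference in log2(FPKM + 1) of the synthesis genes and of 8 other lipid gene lists for the 3 pairs of lines, with dashed lines at the median of all named genes for each pair. Against 4T1 the synthesis genes stand at 0.59 and 0.38 and fatty acid oxidation at 0.85 and 1.16, while SREBP processing lies near the dashed lines.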

How the data were processed

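Per the file headers, each of the authors' tables lists genes with their expected count, which is estimated and need not be whole, FPKM and length. The submitters' processing notes name HISAT, StringTie and mm10. The counting program is not stated in what was used here. The deposited FPKM values are scaled to length and to the table's total expected count, checked from the values (implied total 0.980 to 0.987 of the table's own). The deposited expected counts are not normalised, and were rounded only for intervals. Rows with no symbol held 2.24% to 4.32% of counts. A gene with no row was taken as 0, with folds bounded at 3 counts, a bound that leaves out the counting error of the listed line.

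Differences, 2-fold calls, shares and exact 95% intervals (Poisson for levels, conditional binomial for ratios and shares) were computed in Python 3.11.15 with numpy 2.4.6, pandas 2.3.3 and scipy 1.17.1. Intervals cover counting error only, and PCR copies are not independent. The calling rule was also run on simulated data, which cannot supply the missing spread between replicates of these lines. The genes and lists were chosen with earlier results of these data known. The text names every member, and per list the 2 genes with the largest called difference in each pair. Scd4, Cd36 and the naming of single markers were chosen after their values were seen. Protein sequences were not used here. RefSeq GRCm38.p6, which has the same primary sequence as mm10, gave positions and promoters. With 1 library per line, no count test was run. Alternatives were 2 pseudocounts, 2 filters, TPM, median-of-ratios and upper-quartile scaling, counts without length and a 4-fold rule. A sum with near-identical copies and assembled rows was added after seeing the data.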

Additional observations from a re-analysis of the deposited data

Results flagged for a closer look

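Rows that carry no symbol but are described as 2 of the 33 proteins held signal above the 3 counts that a count of 0 allows, and entered only the sums given beside Acaca and Insig1. An assembled transcript described as acetyl-CoA carboxylase 1 had FPKM 0.09 in B16-F1 (6.3 counts) and 8.16 in Cloudman S91 (477 counts), nearly as much as the 8.79 of Acaca in the same library. An assembled transcript described as the INSIG1 protein had FPKM 5.18 in 4T1 (22.8 counts over 559 bases), where Insig1 had 17.0 (396 counts over 2667 bases). Whether these reads come from the named genes was not tested.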

How the results depend on the processing

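No paired analysis was possible because each line has 1 library and the labels carry no replicate numbers. No gene called in the main setting changed sign under any of the 9 alternatives or the one added later. For B16-F1 minus Cloudman S91 the 3 genes called higher became 1 with a pseudocount of 5, with median-of-ratios and with upper-quartile scaling, and 0 under the 4-fold rule. In these settings, in that order, 4.76%, 8.33%, 8.29% and 2.33% of all genes were called higher. The 0 called lower became 1 with a pseudocount of 0.1, with TPM, with median-of-ratios and upper-quartile scaling, and with counts without length (Acacb or Idi1). There, in that order, 11.3%, 11.2%, 10.6%, 10.8% and 10.5% of all genes were called lower. The median of 0.10 reversed to -0.056 with median-of-ratios and -0.065 with upper-quartile scaling, and the cause was not tested. For B16-F1 minus 4T1 the 11 called higher (against 18.5% of all genes) became 2 under the 4-fold rule (against 6.31%). The 1 called lower (Tm7sf2) became 0 with a pseudocount of 5, with an FPKM minimum of 5 and under the 4-fold rule. In these settings 11.3%, 18.0% and 7.43% of all genes were called lower. The median of 0.59 became 0.96 with TPM. For Cloudman S91 minus 4T1 the 9 called higher (against 18.0% of all genes) became 14 with TPM (against 28.0%). Under the 4-fold rule they became 2 (against 7.47% of all genes). The 1 called lower became 0 under the 4-fold rule (against 8.01% of all genes). The median of 0.38 became 0.83 with TPM and 0.60 with upper-quartile scaling. The medians of the synthesis genes minus those of all genes ranged from 0.48 to 0.63 for B16-F1 minus 4T1 over these settings, with the added one at 0.51, and from 0.42 to 0.57 for Cloudman S91 minus 4T1.

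With expected counts in place of FPKM, shares within pairs shifted with the listed lengths. Scd1 became 9.01%, 18.1% and 6.63% of its pair in B16-F1, Cloudman S91 and 4T1, Elovl5 54.1%, 27.3% and 56.0%, Fads1 60.4%, 76.6% and 66.8%, and Acaca 94.8% in 4T1. With copies and assembled rows added, Scd1 became 21.2% in Cloudman S91 and 8.16% in 4T1, Insig1 58.2% in 4T1 and Acaca 89.3% in Cloudman S91. On counts, the order of the lines did not change for Scd1, Elovl5 or Fads1. For Acaca the order of B16-F1 and 4T1 changed, with 96.0% and 94.8% on counts, against 95.7% and 96.2% in FPKM. Depth limits Tm7sf2, Acacb, Pmvk and Hsd17b7, which rest on at most 166 counts in any library.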
